A study of Mus musculus with 8 samples.

Results

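TET1 occupancy at 7 loci of mouse embryonic stem cells was compared with and without nuclease treatment: the protein-coding genes Actb, Gapdh, Eef1a1, Hspa8 and Npm1 and the noncoding RNA genes Malat1 and Neat1. Each locus was a fixed interval of the mm9 build around its gene, 24 to 36 kb long, and its members were all TET1 peaks that overlapped the interval. These were 197 of 446708 peaks in 6 peak lists, and they merged into 56 of 137027 regions when peaks that overlapped or touched were joined. The loci were picked as highly transcribed genes where R-loops are likely. RNA and R-loops were not measured in these samples, so that description of the loci was not checked here.

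The cells (mESHA-Tet1, genotype HA-Tet1) carry an HA tag on the endogenous TET1 protein. The line is E14TG2a by the series design, whereas C57BL/6N is the strain in the sample labels. Permeabilised cells were incubated for 20 min with RNase H1 (0.2 U/ul) together with Nuclease S1 (0.05 U/ul), or were mock treated, and then crosslinked with DSG and formaldehyde for immunoprecipitation with an HA antibody. Each group had 3 ChIP libraries and 1 input pooled over its replicates. A library's list held 62161 to 83601 peaks, of which 35 lay in the 7 loci in each mock library and 30, 28 and 34 in the treated ones. The sample labels name RNase H1 alone as the agent while the design and protocol name both enzymes, no library had a single enzyme, and the nuclease-treated group below is the one labelled RNase H1. The labels do not say whether replicates were separate cultures, so p-values measure the spread between these libraries, which may be technical.

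TET1 oxidises methylated cytosine in DNA, and its CXXC domain binds CpG-rich sequence, which places much of it at CpG-rich promoters in embryonic stem cells. An R-loop forms when a nascent RNA pairs with its template and leaves the other DNA strand single. RNase H1 digests the RNA of such a hybrid and Nuclease S1 cuts single-stranded nucleic acid. Housekeeping genes with strong CpG-rich promoters and abundant nuclear noncoding RNAs are common examples of loci that form R-loops.

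Promoter sequence is shown for the loci whose genes were found in the RefSeq promoter table, Gapdh, Eef1a1 and Malat1 (3 of 7), because CpG sites are what the TET1 CXXC domain binds. The lines give the 250 bases before the annotated start, 5′ to 3′ on the gene's strand, with each CG in capitals. They lie on the minus strand of GRCm38.p6 at chr6:125165774-125166023 (Gapdh), chr9:78481725-78481974 (Eef1a1) and chr19:5802673-5802922 (Malat1). That build is not the one of the peaks, so a peak was not placed on these sequences.
Gapdh: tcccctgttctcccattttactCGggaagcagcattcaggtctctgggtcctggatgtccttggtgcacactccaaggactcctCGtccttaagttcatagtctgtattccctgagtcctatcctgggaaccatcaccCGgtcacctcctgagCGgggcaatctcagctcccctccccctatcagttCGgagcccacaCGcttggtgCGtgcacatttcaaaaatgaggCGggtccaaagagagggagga
Eef1a1: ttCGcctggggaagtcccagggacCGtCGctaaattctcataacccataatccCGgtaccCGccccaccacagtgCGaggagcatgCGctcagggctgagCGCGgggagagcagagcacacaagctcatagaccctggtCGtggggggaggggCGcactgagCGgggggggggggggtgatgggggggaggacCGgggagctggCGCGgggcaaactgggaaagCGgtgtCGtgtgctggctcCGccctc
Malat1: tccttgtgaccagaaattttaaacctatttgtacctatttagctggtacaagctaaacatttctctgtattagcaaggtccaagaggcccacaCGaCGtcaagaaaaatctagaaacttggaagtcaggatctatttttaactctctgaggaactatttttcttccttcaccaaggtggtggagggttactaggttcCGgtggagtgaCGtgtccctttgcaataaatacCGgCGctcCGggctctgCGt
The motif CG, which reads the same on both strands, occurred 8 times in the Gapdh window, 18 times in that of Eef1a1 and 8 times in that of Malat1. Among 32851 RefSeq promoter windows of this length the median was 6, and 43.0% held 8 or more and 21.7% held 18 or more. The Eef1a1 window also carried a run of 14 G on the gene's strand, and 0.335% of windows held a G run as long. GC content was 55.6% for Gapdh, 68.0% for Eef1a1 and 44.0% for Malat1, against a median of 52.4%. The Malat1 window was thus the poorest in GC of the 3. In the 50 bases nearest the start it held 5 of its 8 CG sites, Eef1a1 held 5 of 18 and Gapdh 2 of 8. How common such counts are among all windows was not computed.

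The strongest TET1 peak was lower after nuclease treatment in 6 of 7 loci, by most at Malat1, and the Neat1 interval was the exception. Coverage is given as times background, which is the number of fragments over a peak's summit divided by the mean fragment coverage of the genome in the same library. That background lay between 1.93 and 2.25 fragments in the 6 libraries and did not differ between groups beyond their spread (exact two-sided permutation p = 0.3). Locus values were compared by an exact permutation test of 3 against 3 libraries, in which no p can fall below 0.1, and a locus is called lower when every nuclease-treated library lay below every mock library. In 25 kb tiles of the genome with a peak in all 6 libraries, the strongest peak was lower in this sense in 53.2% of 20798 tiles and higher in 0.933%. The median ratio of nuclease-treated to mock means was 0.606 over the 7 loci and 0.750 over the tiles. The tiles are not matched in strength, since their strongest peaks had a median mock mean of 14.3 times background, below every locus but Neat1. In regions with a peak in all 6 libraries and a mean of 15 times background or more, 82.7% were lower and the median ratio was 0.651. These strong regions are not matched in strength either. Their medians in the mock libraries were 23.1 to 23.5 times background, also below every locus but Neat1.

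**Figure D1:**
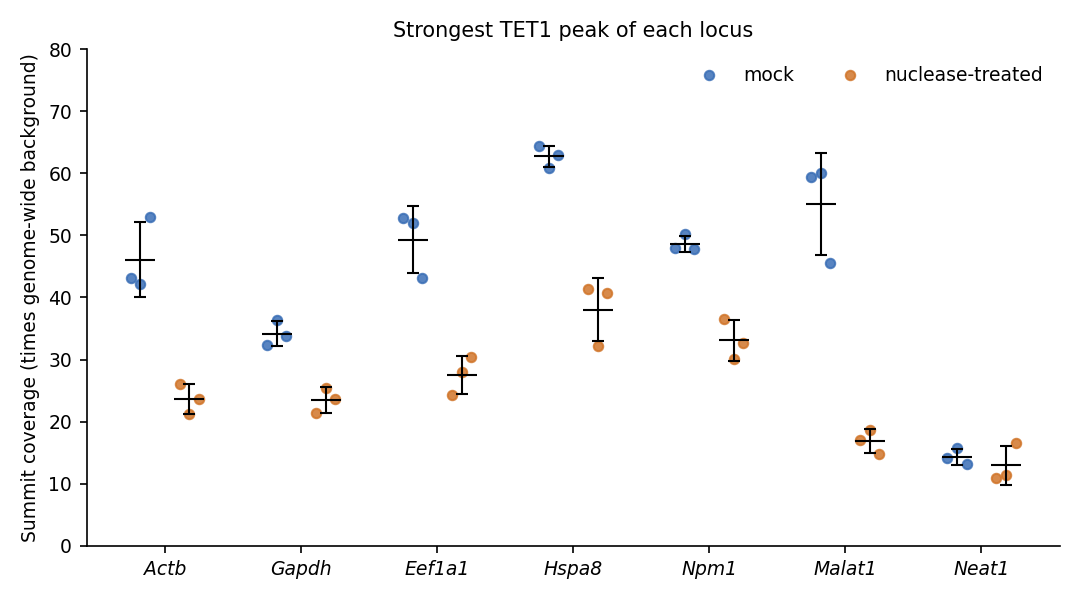
Summit coverage of the strongest TET1 peak in each of the 7 loci, in times the genome-wide background; points are libraries (mock blue, nuclease-treated orange), and bars are the mean and SD of 3 libraries. The groups are apart in every locus but Neat1, and the nuclease-treated Malat1 libraries lie between 14.7 and 18.7 against 45.5 to 60.0 in mock.

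Malat1 is transcribed into a long nuclear RNA found in nuclear speckles. Its strongest region, at mm9 chr19:5802548-5804291, had 59.5, 60.0 and 45.5 times background in the mock libraries, in the order of replicates 1 to 3 as in all such lists below, against 17.1, 18.7 and 14.7 with nucleases. The lowest mock library was thus above 45 times background and the highest nuclease-treated one below 19. In fragments the summits held 134, 134 and 97 against 36, 36 and 33. Its mean fell from 55.0 ± 8.23 to 16.8 ± 1.98 times background (SD, n = 3 each), a ratio of 0.306 and a log2 change of -1.70 (SE 0.16; exact two-sided permutation p = 0.1, and 0.217 after Benjamini-Hochberg adjustment over 29613 regions). The local background of the peak caller at this summit was 2.21 ± 0.0803 times the genome-wide one in mock libraries and 2.06 ± 0.0124 in treated ones (SD, n = 3 each).

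Strong regions elsewhere in the genome also lost coverage, and Malat1 lost more than their median. Of 29613 regions with a peak in all 6 libraries, 44.7% were lower and 1.39% higher, with a median ratio of 0.785. Among the 8023 of them whose mean over all 6 libraries reached 15 times background, 82.7% were lower and the median ratio was 0.651, with quartiles of 0.578 and 0.733. A ratio of 0.306 or less was found in 9 of these 8023 regions, Malat1 included. As a test of the difference, each library's value was divided by its own median over these strong regions, a measure chosen after the data were seen. On that scale Malat1 fell from 2.36 ± 0.368 to 1.11 ± 0.136 (SD, n = 3 each), with the groups apart (exact permutation p = 0.1), while 11.2% of the strong regions were lower and 11.6% higher. The strong regions were not matched to Malat1 in strength, with medians of 23.1 to 23.5 times background in mock libraries.

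**Figure D2:**
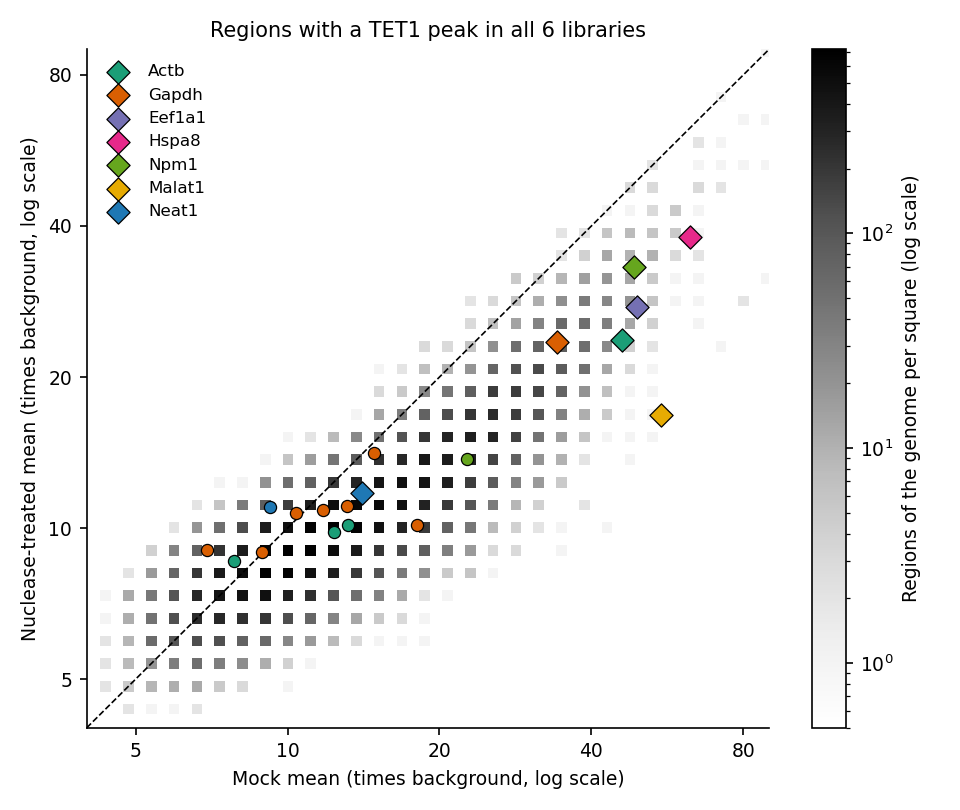
Mean coverage of regions with a TET1 peak in all 6 libraries, mock on the x axis and nuclease-treated on the y axis (times background, log scales, dashed line at equality); diamonds are the strongest region of each locus, circles the other regions of the same colour's locus, and grey squares all 29613 regions. The Malat1 diamond, at 55.0 and 16.8, lies at the lower edge of the grey regions, and the Neat1 diamond lies near the line.

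Actb encodes the cytoskeletal beta-actin. Its strongest region, mm9 chr5:143666800-143668940, had 43.1, 42.1 and 53.0 times background in mock replicates 1 to 3 and 26.1, 21.3 and 23.7 after treatment, so the highest treated library stayed well under the lowest mock one. The mean fell from 46.1 ± 6.05 to 23.7 ± 2.43 (SD, n = 3 each; log2 change -0.96, SE 0.14; exact permutation p = 0.1, adjusted p = 0.217 over all regions). Divided by the library's median of strong regions the value fell too, from 1.98 ± 0.246 to 1.56 ± 0.153 (SD, n = 3 each; exact permutation p = 0.1). Without mock replicate 3 that difference of -0.414 became -0.273, with the groups still apart. This scale was chosen after the data were seen, and 11.2% of strong regions were lower on it. In times background the ratio at Actb was 0.514, and 10.2% of the 8023 strong regions had a ratio as low. The local background here moved as well, from 1.21 ± 0.0251 to 2.71 ± 0.0659 times the genome-wide one (SD, n = 3 each), and the authors' fold enrichment, which divides by it, fell from 28.0 ± 3.73 to 7.60 ± 0.952. Libraries of a group shared 1 pooled input for the local background, whereas times background does not use the input.

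Hspa8, which encodes the constitutive chaperone of the Hsp70 family (Hsc70), held the strongest peak of the 7 loci in every library. The region at mm9 chr9:40608030-40610248 had 64.4, 60.9 and 62.9 times background in mock replicates and 41.3, 32.1 and 40.6 in treated ones. The groups did not overlap, and the treated libraries varied more than the mock ones. Means were 62.7 ± 1.73 and 38.0 ± 5.11 (SD, n = 3 each; log2 change -0.73, SE 0.12; exact permutation p = 0.1, adjusted p = 0.217 over all regions). Every mock library had 1 peak over this region, while treated replicates 1 and 3 had 2 peaks with a gap between them and treated replicate 2 had 1. Local background rose from 1.05 ± 0.0652 to 2.20 ± 0.0121 times the genome-wide one (SD, n = 3 each).

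Eef1a1 encodes the elongation factor that delivers aminoacyl-tRNA to the ribosome. Its region at mm9 chr9:78328380-78330234 had 52.8, 52.0 and 43.2 times background in mock and 24.2, 28.0 and 30.4 after treatment, again without overlap. The mean went from 49.3 ± 5.34 to 27.5 ± 3.10 (SD, n = 3 each; log2 change -0.84, SE 0.13; exact permutation p = 0.1, adjusted p = 0.217 over all regions). Here the local background did not rise, at 1.88 ± 0.169 and 1.77 ± 0.198 times the genome-wide one (SD, n = 3 each). At Eef1a1 and Malat1 the strongest region had lower coverage and no higher local background. Times background does not use the local background, and a link between them was not tested.

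Npm1 encodes nucleophosmin, a nucleolar protein with roles in ribosome assembly. Its strongest region, mm9 chr11:33062155-33063611, had 47.9, 50.2 and 47.9 times background in mock and 36.6, 30.1 and 32.6 after treatment. Mock libraries were close to one another and all above the treated ones. The mean fell from 48.7 ± 1.31 to 33.1 ± 3.28 (SD, n = 3 each; log2 change -0.56, SE 0.08; exact permutation p = 0.1, adjusted p = 0.217 over all regions). A second strong region, at mm9 chr11:33046641-33048650, held 18.2, 17.9 and 31.9 times background in mock and 15.7, 13.0 and 12.5 after treatment, also lower in every treated library. In RefSeq order the neighbours of Npm1 are Fgf18 and the pseudogene Gm12115, and the second region was not assigned to a gene.

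Gapdh, the glycolytic glyceraldehyde-3-phosphate dehydrogenase, had the lowest strongest peak of the 5 protein-coding loci in mock. Its region at mm9 chr6:125113779-125115824 had 32.4, 36.3 and 33.8 times background in mock and 21.4, 25.4 and 23.7 after treatment, with no overlap. The mean fell from 34.2 ± 1.97 to 23.5 ± 2.02 (SD, n = 3 each; log2 change -0.54, SE 0.09; exact permutation p = 0.1, adjusted p = 0.217 over all regions). Local background was 1.14 ± 0.0343 times the genome-wide one in mock libraries and 1.67 ± 0.0685 in treated ones (SD, n = 3 each), and it was also 1.77 ± 0.0916 and 2.85 ± 0.0630 at the strongest Npm1 region. Across the genome it was higher in every treated library in 58.2% of regions with a peak in all 6 libraries. With 1 pooled input for each group, agreement of the libraries in local background is not replication. The part of local background in the peak calls of these loci was not tested.

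Relative to the library's median of strong regions, Eef1a1, Hspa8, Npm1 and Gapdh overlapped between groups. The ratios of treated to mock means on that scale were 0.858, 0.932, 1.05 and 1.06, with exact permutation p-values of 0.3, 0.5, 0.7 and 0.4. Against the median of all regions found in all 6 libraries, which lost less coverage than the strong ones, all 4 were lower with the groups apart (exact permutation p = 0.1 each). On the scale of strong regions, Eef1a1 came apart without mock replicate 3 (difference -0.441) and Gapdh without treated replicate 1 (0.157). Npm1 and Hspa8 turned in sign without treated replicates 1 and 2, to -0.0167 and 0.00299. So the strongest peaks of these 4 loci fell against the genome-wide background and against the median of all regions found in all 6 libraries. That median leaves out regions that had no peak in a treated library, so it cannot stand for a typical mock region. The 4 loci were not shown to fall more or less than strong regions do, and those are not matched to them in strength.

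Neat1, whose gene has Malat1 and Frmd8 as neighbours in RefSeq order (Frmd8 within 10 kb), is transcribed into the RNA scaffold of paraspeckles. The strongest peak of its interval had 14.2, 15.7 and 13.1 times background in mock and 10.9, 11.4 and 16.5 after treatment, so the groups overlapped because treated replicate 3 was the highest of all. Means were 14.3 ± 1.28 and 13.0 ± 3.10 (SD, n = 3 each; exact permutation p = 0.6), and without treated replicate 3 the difference of -1.39 became -3.18 with the groups apart. The strongest peak was not at the same place in all libraries. In mock replicate 3 and treated replicate 3 it lay at mm9 chr19:5824451-5825039, and in treated replicate 1 at mm9 chr19:5849109-5850586. Mock replicates 1 and 2 had it at mm9 chr19:5851659-5853342. The region of highest mean, mm9 chr19:5851659-5853342, had 14.2, 15.7 and 12.2 against 10.4, 11.4 and 13.4 (log2 change -0.26, SE 0.15; exact permutation p = 0.2, adjusted p = 0.344 over all regions). It lies near the upper end of the interval in coordinates, on the side away from the Malat1 interval. Peaks of the Neat1 interval were not assigned to Neat1 or Frmd8, so these values describe the interval and not the gene. Divided by the library's median of strong regions this region was higher after treatment, at 0.776 ± 0.0986 against 0.603 ± 0.0773 (SD, n = 3 each; exact permutation p = 0.1). It is itself weaker than those regions, and against the median of all regions the groups overlapped (exact permutation p = 0.7).

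In mock libraries the loci ranked Hspa8, Malat1, Eef1a1, Npm1, Actb, Gapdh and Neat1 by mean strongest peak. Among Malat1, Eef1a1, Npm1 and Actb, neighbours in that order overlapped in their libraries. Hspa8 and Malat1 did not, though the lowest Hspa8 library, at 60.9, was just above the highest Malat1 one, at 60.0, and Gapdh and Neat1 each stood apart from the locus above. After treatment the order was Hspa8, Npm1, Eef1a1, Actb, Gapdh, Malat1 and Neat1, with Malat1 moving from the second place to the sixth. Neighbours in that order overlapped except Gapdh and Malat1. Malat1 and Neat1 libraries ran from 14.7 to 18.7 and from 10.9 to 16.5 times background.

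The place of the highest coverage inside the strongest region also moved at Malat1. Its summits lay within 7 bp of each other in the mock libraries and within 29 bp of each other in the treated ones, and the treated mean was 376 bp lower in mm9 coordinates (SD 4.04 and 14.8 bp, n = 3 each; exact permutation p = 0.1). By position the mock summits were at 5803706, 5803699 and 5803706 and the treated ones at 5803344, 5803324 and 5803315. Summits of the groups also did not overlap at Actb, 54.7 bp higher in coordinates after treatment, and at Npm1, 37.7 bp lower, and they overlapped at the other 4 loci. Among strong regions of the genome 13.9% had summits that did not overlap between groups, and 7.89% had a mean shift of 376 bp or more. At Eef1a1 the treated summits were spread over 376 bp, and the direction of its shift changed with 4 of the libraries left out; without treated replicate 3 the shift was 131 bp with the groups apart. Groups also came apart at Gapdh without mock replicate 1 or treated replicate 1 (66.7 and 78.2 bp) and at Hspa8 without mock replicate 3 (-33.3 bp). The median shift in the genome's strong regions was 55.7 bp, so the shifts at Actb and Npm1 were of common size. This comparison was chosen after the data were seen.

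**Figure D3:**
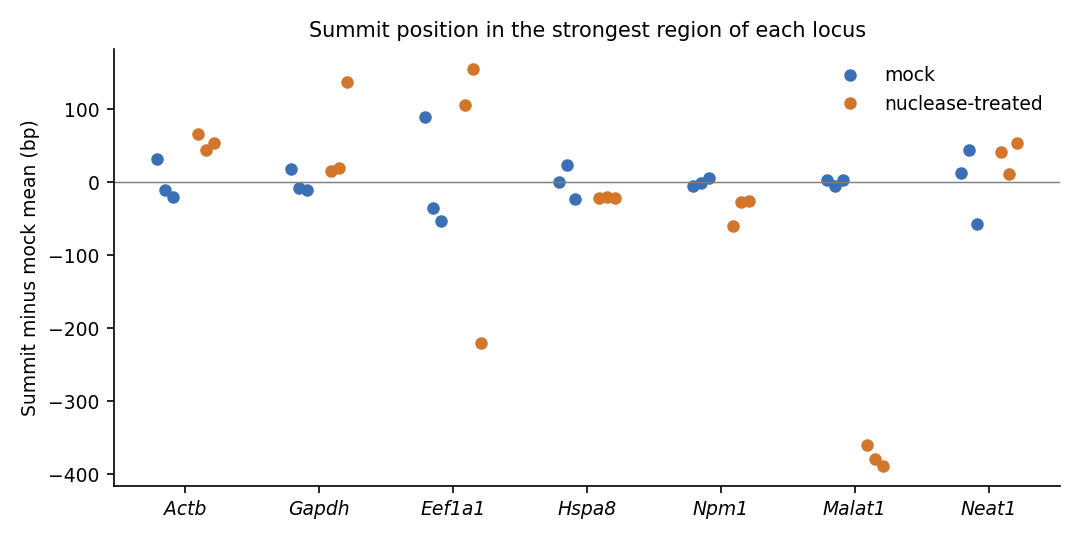
Summit position in the strongest region of each locus, in bp from the mean of its 3 mock libraries; each point is a library (mock blue, nuclease-treated orange). The 3 treated Malat1 summits lie between -389 and -360 bp, and those of the other loci lie between -221 and 155 bp.

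The other 49 regions of the loci were weaker, between 4.00 and 31.9 times background. Of all 56 regions, 19 had a peak in all 6 libraries, 13 in 2 to 5 libraries and 24 in 1 library. Among the 12 regions with a peak in all 6 libraries that were not the strongest of their locus, 3 were lower in every treated library, 1 was higher and 8 overlapped, with a median ratio of 0.938. With the strongest regions included, the counts were 9 lower, 1 higher and 9 overlapping of 19, or a median ratio of 0.795, near the genome's 0.785. Of all 29613 regions of the genome with a peak in all 6 libraries, 44.7% were lower and 1.39% higher.

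The Gapdh interval showed both directions. It held 13 regions, 8 of them found in all 6 libraries, and besides the strongest one a region at mm9 chr6:125110118-125111469 was lower in every treated library, at 20.0, 19.3 and 15.0 against 9.97, 9.33 and 11.2 times background (log2 change -0.83, SE 0.15; exact permutation p = 0.1, adjusted p = 0.217 over all regions). Another, at mm9 chr6:125120811-125121557, was higher in every treated library, at 7.99, 6.72 and 6.10 against 9.02, 8.30 and 9.83 (log2 change 0.39, SE 0.13; exact permutation p = 0.1, adjusted p = 0.217 over all regions). The first lies 4.01 kb and the second 6.38 kb from the centre of the strongest region, on opposite sides. The neighbours of the gene Gapdh in RefSeq order are Iffo1 and Ncapd2, each within 10 kb of it, and regions were not assigned to these genes.

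In the Actb interval 11 regions were found and 4 of them in all 6 libraries. A region 10.8 kb below the strongest one in coordinates, mm9 chr5:143656382-143657813, was lower in every treated library, at 12.0, 14.3 and 10.8 against 9.97, 8.81 and 10.7 times background. Mock replicate 3 and treated replicate 3 differed there by less than 0.1 times background, so the separation is a narrow one. The regions next to the strongest one on each side overlapped between groups, with ratios of 0.771 and 1.10.

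One region of the 7 loci had a peak in all 3 mock libraries and in no treated library. It lay in the Malat1 interval at mm9 chr19:5809835-5810496 and was weak, at 6.22, 7.62 and 6.10 times background. In the whole genome 6.67% of the 48273 regions found in all mock libraries had no treated peak, against 1 of 24 in these loci. In the other direction 1.68% of 34189 regions found in all treated libraries had no mock peak, against 0 of 21 in these loci. Absence of a peak gives no coverage value, so a loss of coverage at this region is not measured. The Neat1 interval had a region of 13.8, 14.8 and 13.1 times background in mock, at mm9 chr19:5824451-5825039, with a peak in treated replicate 3 alone, at 16.5 times background, and none in treated replicates 1 and 2.

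**Figure D4:**
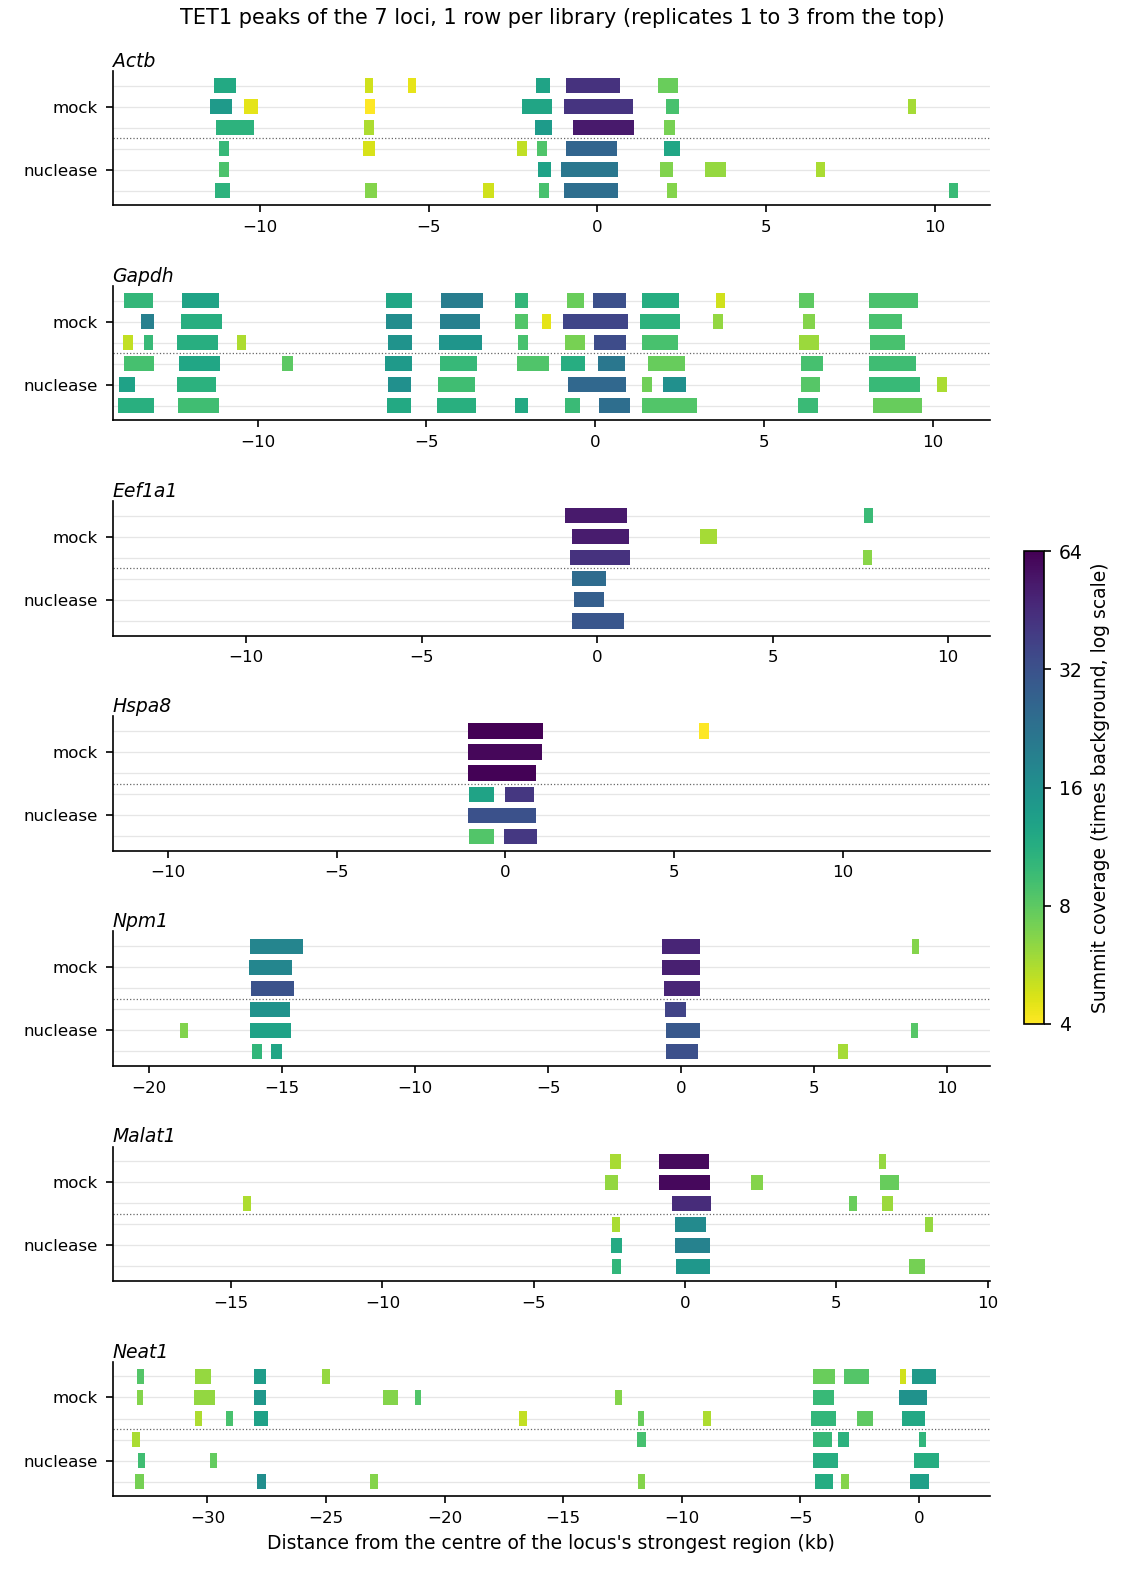
TET1 peaks in the 7 intervals, 1 row per library (3 mock rows above the dotted line, 3 nuclease-treated below), against the distance from the centre of each locus's strongest region in kb; colour is summit coverage in times background on a log scale. The strongest region recurs in all 6 rows of every locus, the Hspa8 region is split in 2 treated rows, and the Neat1 rows hold 8, 8 and 9 peaks in mock and 5, 4 and 7 after treatment.

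Neat1 and Eef1a1 were the loci with fewer peaks in every treated library. The Neat1 interval held 8, 8 and 9 peaks in mock and 5, 4 and 7 after treatment, and the Eef1a1 interval 2 in each mock library and 1 in each treated one (exact permutation p = 0.1 for both). The Eef1a1 difference was a weak second peak, found at one place in mock replicate 2 and at another in mock replicates 1 and 3. Peak numbers overlapped at the other 5 loci, but came apart at Gapdh and Npm1 without treated replicate 1 (differences of -1.33 and 1.67 peaks) and at Malat1 without mock replicate 1 (-1.33). At Actb the difference of 0.333 peaks turned to -0.167 without mock replicate 3. For comparison, in tiles of the genome they were lower in every treated library in 4.51% and higher in 1.15%. The tiles held a median of 2 peaks in mock and in treated libraries, so these shares are not matched to the Neat1 interval. With lists cut to equal length both differences shrank, to -1.33 peaks at Neat1 and -0.667 at Eef1a1, with overlapping groups.

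Sequence under peaks was lower in every treated library at Neat1, Eef1a1, Malat1 and Actb. At Neat1 it was 5083, 4962 and 4797 bp in mock and 2226, 2672 and 3342 bp after treatment, or 4947 ± 144 and 2747 ± 562 bp (SD, n = 3 each; exact permutation p = 0.1). Eef1a1 went from 2031 ± 69.2 to 1102 ± 325 bp, Malat1 from 2533 ± 520 to 1666 ± 231 bp and Actb from 4271 ± 634 to 3495 ± 169 bp (SD, n = 3 each; exact permutation p = 0.1 each). The Neat1 difference of -2201 bp became -800 bp with only peaks of −log10 q at or above 6.59, the median of all peaks, and -984 bp with the interval shortened by 5 kb, with the groups still apart. Without mock replicate 2 the Actb difference of -776 bp became -418 bp and the Malat1 difference of -867 bp became -567 bp, also with the groups apart. In tiles of the genome 31.2% were lower in every treated library and 1.18% higher.

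Covered sequence overlapped between groups at Gapdh, Hspa8 and Npm1. Gapdh had 8773 ± 349 bp in mock and 9085 ± 804 bp after treatment, the widest coverage of the loci in both groups, and Hspa8 2243 ± 251 and 1784 ± 206 bp, and Npm1 3239 ± 375 and 2666 ± 581 bp (SD, n = 3 each; exact permutation p = 0.5, 0.2 and 0.3). Without treated replicate 2 the groups came apart at all 3, at 751 bp higher for Gapdh and with differences of -575 bp for Hspa8 and -906 bp for Npm1, and without treated replicate 1 the Gapdh difference turned to -38.7 bp. Hspa8 was also apart without mock replicate 3, at -573 bp. With lists of equal length the groups overlapped at Actb and Malat1, with differences of -615 and -486 bp.

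**Figure D5:**
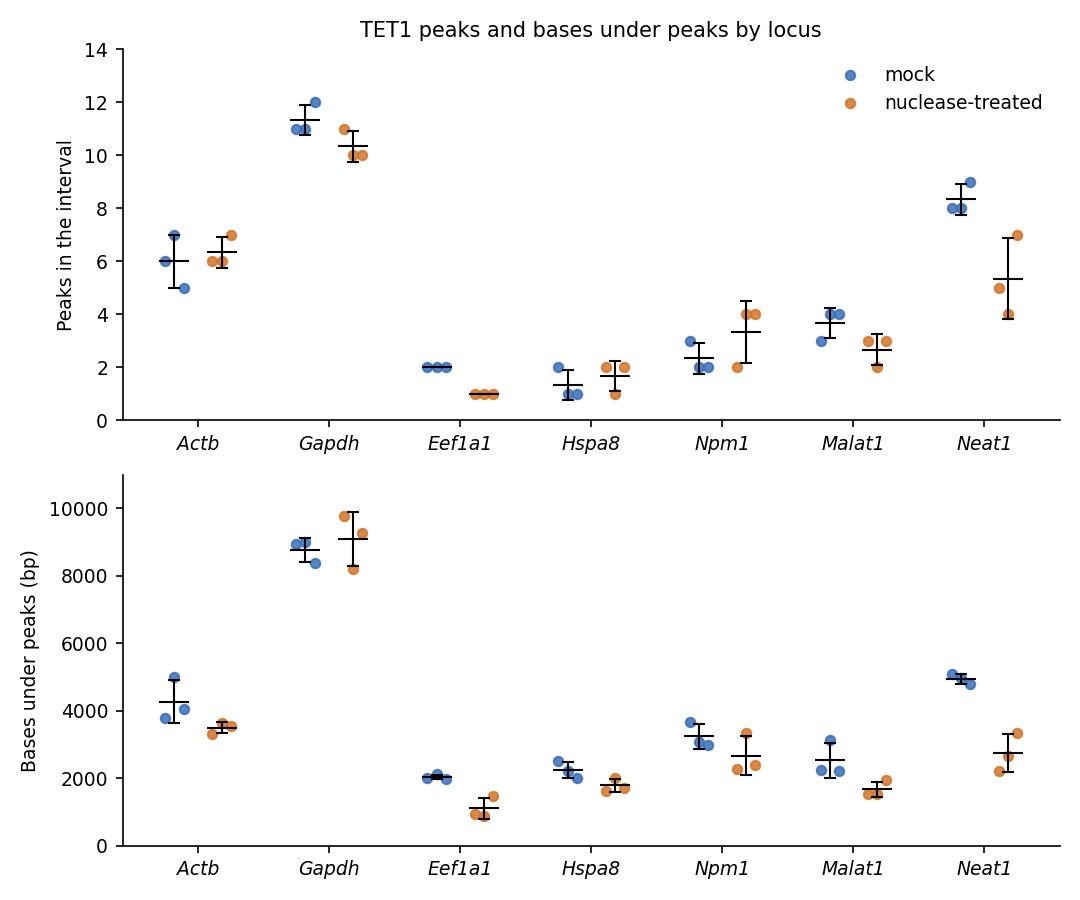
Number of TET1 peaks (top) and bp under peaks (bottom) in each interval; points are libraries (mock blue, nuclease-treated orange), and bars are the mean and SD of 3 libraries. Neat1 and Eef1a1 are apart in both panels, and Gapdh has the most peaks and the most covered sequence in both groups.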

How the data were processed

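HA-tagged TET1 ChIP-seq peak lists were used for 3 mock and 3 nuclease-treated libraries; the 2 inputs were not analysed here on their own. Per the submitters' processing notes the tools were MACS2 2.1.1, Bowtie2 2.2.8, bedtools 2.25.0, SAMtools 1.3.1, deepTools 2.4.3 and Picard, on mm9. Their settings were not given in the sources used here. The authors called peaks per library against the pooled input of the condition, as the peak names show. The deposited fold is a ratio of ChIP over local background, p-values and q-values were deposited as −log10, and the authors' score is the −log10 q times 10, without decimals. Summit coverage and local background were solved from fold and p with the MACS2 formulas, and a whole number of fragments matched within 0.001 of the −log10 p for all peaks but 1. The most frequent local background was taken as the genome-wide one. Total fragment numbers are unknown, and the median summit of 16 to 18 fragments limits single peaks.

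Peaks of the 6 lists that overlapped or touched were merged, and a region took the highest value per library. Tests were exact two-sided permutation tests (Python 3.11.15, NumPy 2.4.6), over 21 locus comparisons that were not adjusted and with Benjamini-Hochberg adjustment over all regions found in every library. The solving, merging and calling steps were tested on simulated data. All 7 loci are named, with the region of highest mean coverage and any region of 1 group alone in full. Loci and measures were chosen with earlier results of these data known. Other highly transcribed genes were not analysed here, since mm9 gene positions were not given. RefSeq tables (GRCm38.p6) gave promoter sequences and gene order only. Alternatives were a stricter −log10 q of 6.59, lists of 62161 peaks, peaks of local background up to 2 times the genome-wide one, intervals changed by 5 kb, summits inside the interval, the authors' fold, fragments, the replicate block and leaving out each library.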

Additional observations from a re-analysis of the deposited data

How the results depend on the processing

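Of 390 recomputed values of the loci, 325 kept a non-zero direction and whether the groups were apart, and 3 differences of overlapping groups became 0: peak numbers at Malat1 with equal list lengths and with shortened intervals, and at Actb without treated replicate 3. The strongest peaks of Actb, Gapdh, Hspa8, Npm1 and Malat1 stayed lower with the groups apart in every setting that gave a value. At Actb and Npm1 the filter on local background is no test of this. Without peaks of local background over 2 times the genome-wide one, no value was left for Hspa8 and Malat1, and Eef1a1 became -6.41 times background with overlap, since a mock peak was removed. That filter also removed the strongest treated peaks of Actb and Npm1 and kept the mock ones. Mock peaks were then set against other, weaker treated regions, so the filter itself made the treated values lower. Bases at Actb, Npm1 and Hspa8 lost the strongest region in the treated group alone as well. With it, peak numbers differed by -2.00 (Actb, reversed), -2.67 (Gapdh, apart), -0.667 (Eef1a1 and Hspa8, the latter reversed) and -0.333 (Npm1, reversed), and bases by -991 (Gapdh, reversed), -386 (Eef1a1, overlapping), -1748 (Hspa8, apart), -1803 (Npm1, apart) and -608 bp (Malat1, overlapping).

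With the stricter q threshold, peak numbers differed by -1.33 (Actb, reversed), -0.333 (Eef1a1), 0.667 (Malat1, reversed) and -0.667 (Neat1), and bases by -1850 (Gapdh, reversed and apart), -795 (Npm1, apart) and -240 bp (Malat1); lower regions of the genome numbered 7803 of 12247, against 13224. With equal list lengths, peak numbers differed by 0.667 (Gapdh, reversed), -0.667 (Eef1a1) and -1.33 (Neat1), and bases by -615 (Actb) and -486 bp (Malat1). Widening by 5 kb gave 0.667 peaks (Gapdh, reversed), -2.67 peaks (Neat1) and -624 bp (Actb). Shortening gave -0.333 (Eef1a1) and -2.00 peaks (Neat1), and -249 (Actb), -319 (Gapdh, reversed), -692 (Npm1, apart) and -547 bp (Malat1). Where not said otherwise, the groups overlapped. Some differences moved by over 1.5 times with the groups still apart. Strongest peaks became -34.4 at Actb and -35.7 at Npm1 without peaks of high local background, which also gave -2833 bp at Actb. These 3 values come from the loss of the strongest treated peaks and are not larger differences of the same peaks. The stricter threshold gave -1440 bp at Actb and -800 bp at Neat1, shortening -984 bp at Neat1, and widening -1.67 peaks at Eef1a1. The causes of the changes other than removed peaks were not tested.

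Leaving out 1 library gave strongest-peak differences of -3.18 to -0.375 at Neat1. Peak differences ran from -0.167 to 0.833 (Actb), -1.33 to -0.667 (Gapdh and Malat1) and 0.667 to 1.67 (Npm1), and base differences from -1019 to -418 (Actb), -1025 to -567 (Malat1), -38.7 to 751 (Gapdh), -575 to -324 (Hspa8) and -906 to -357 bp (Npm1). Relative to the median of strong regions, they ran from -0.287 to 0.00299 (Hspa8), -0.0167 to 0.186 (Npm1), 0.0154 to 0.157 (Gapdh), -0.499 to -0.273 (Actb) and -0.441 to -0.189 (Eef1a1). Summit shifts ran from -57.5 to 131 bp at Eef1a1, 17.7 to 78.2 bp at Gapdh and -33.3 to -9.83 bp at Hspa8. Against the median of all regions, the differences of -0.325 at Gapdh and -0.493 at Npm1 were reversed.

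The replicate block, which compares same-numbered libraries, gave a difference of -459 bp at Hspa8 with all 3 pairs lower, where the groups had overlapped (exact permutation p = 0.25, its smallest), and relative differences of 0.0844 at Gapdh and -0.184 at Hspa8 likewise. It changed no other call of a locus. Deviations of same-numbered libraries correlated at 0.0134, -0.00486 and 0.0378 over 29613 regions, so the numbers were not taken as pairs. Depth limits the weak regions, whose summits hold few fragments.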
